A study of Mus musculus with 7 samples.

Results

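The 10541 regions described here are the anti-Six4 peaks that crowd into 155 windows of 1 Mb in differentiating C2C12 cells. Peak midpoints were counted in fixed windows that start at multiples of 1 Mb on chromosomes 1 to 19, and a window was taken as dense when it held at least 60 peaks. These chromosomes gave 2421 windows from the first that holds a peak to the last, and 6.4% of them were dense. Their peaks were 18% of the 58528 in the authors' list, and 46574 peaks of the same chromosomes lay in other windows. The count of peaks chose the windows, so the counts are a description and support nothing.

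C2C12 is a mouse myoblast line that forms myotubes when serum is lowered, and these cells had been held in differentiation medium with horse serum for 24 h. The peaks come from 1 library, chromatin immunoprecipitated with an anti-Six4 antibody from the line that stably expresses the control hairpin shNS. The series describes 6 further libraries, all at 24 h, which were not analysed here. They are anti-Six4 from the line with stable Six4 knockdown (shSix4), anti-Flag from cells infected with a retrovirus for Flag-Six4-myc, anti-Flag and normal rabbit IgG from parental C2C12, and input DNA of parental and of shNS cells. The control hairpin line is a stably modified derivative of C2C12, and the labels do not say whether it is 1 clone. With 1 library there is no replicate, the read depth is unknown, and no value below measures variation between cultures. Without the knockdown and IgG libraries, the dependence of these peaks on Six4 cannot be stated.

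Six4 is a DNA-binding protein with a homeodomain, related to the sine oculis factor of flies. Members of its family bind the MEF3 element found in the control regions of many muscle genes and act with Eya co-factors, and in muscle they work alongside the MyoD family to turn on genes of differentiation. Vertebrate genes and their control regions are unevenly spread, with gene-rich and gene-poor stretches of megabase length. The count of peaks per megabase used here describes the spread of peaks only, and its relation to gene density was not tested. Positions are in the mm9 build, and no sequence or gene annotation of that build was used here, so the genes in the windows were not identified and no sequence is shown.

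The densest window lay on chromosome 15 from 102000001 to 103000000 and held 103 peaks. Next came a window with 98 peaks on chromosome 8, from 87000001 to 88000000. Another 2 windows had 89 peaks, that on chromosome 1 spanning 137000001 to 138000000 and that on chromosome 15 spanning 81000001 to 82000000. Chromosome 16 from 91000001 to 92000000 held 86 peaks, chromosome 8 from 97000001 to 98000000 held 84 and chromosome 15 from 100000001 to 101000000 held 83. The last 3 of the 10 densest, with 82 peaks each, began at 155000001 on chromosome 2, 76000001 on chromosome 15 and 4000001 on chromosome 19. Windows of this size were rare among the dense ones. The median dense window held 66 peaks, 102 of the 155 held fewer than 70, 43 held 70 to 79, and 10 held 80 or more. Chromosome X, which the rule leaves out, reached at most 52 peaks in a window.

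All 19 autosomes had at least 2 dense windows, but the windows were far from evenly shared. Chromosome 11 had 24 of its 119 windows dense (20.2%) and chromosome 15 had 20 of 101 (19.8%). Together these 2 chromosomes held 44 dense windows, 28.4% of all. On chromosome 15 the dense windows carried 44.1% of the chromosome's peaks, and on chromosome 11 they carried 38.4%. Chromosomes 19 and 17 followed with 11.9% and 11.8% of their windows dense. Chromosome 7, with 2 dense windows of 150 (1.33%), and chromosome 13, with 2 of 118 (1.69%), had the lowest shares.

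**Figure D1:**
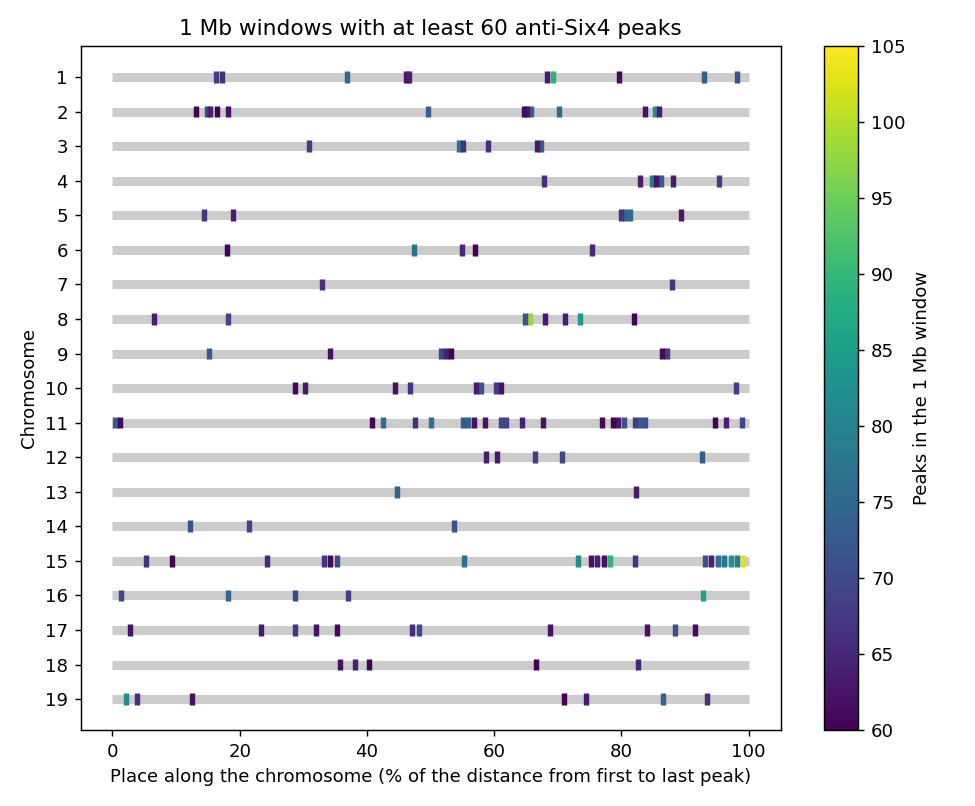
Each tick is a dense window, placed by its distance along the chromosome as a percent of the way from first to last peak and coloured by its number of peaks; each grey bar is 1 chromosome. Chromosome 11 (24 ticks) and chromosome 15 (20 ticks) are the most filled, and the 7 adjoining windows of chromosome 15 stand at its far right end.

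The share of dense windows was highest toward the far end of chromosomes, which in the mouse lies away from the centromere. In the first 20% of the distance from first to last peak 24 of 484 windows were dense (4.96%, exact binomial 95% interval 3.20 to 7.29%), and from 20 to 40% of the way 19 of 481 (3.95%, 2.39 to 6.10%). The share was 6.43% between 40 and 60% and 7.88% between 60 and 80%. In the last 20% of the distance 43 of 492 windows were dense (8.74%, 6.40 to 11.6%). Among those 43 were the 7 adjoining windows of chromosome 15 from 96000001 to 103000000. Whether single chromosomes carry the pattern was not tested. The intervals of both ends overlap. They cover counting error only and treat windows as independent, which neighbouring windows are not.

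Many dense windows adjoined one another. Of the 155, 61 (39.4%) shared an edge with another dense window and 94 stood alone. For comparison, 219 of the 2266 windows that were not dense touched a dense window. The 61 formed 23 stretches, of which 13 had 2 windows, 8 had 3, 1 had 4 and 1 had 7. The single stretch of 7 ran along chromosome 15 from 96000001 to 103000000 and held 554 peaks, with 71, 64, 77, 77, 83, 79 and 103 in its successive windows. The stretch of 4 lay on the same chromosome from 78000001 to 82000000 and held 277 peaks, the last of its windows being one of the 2 with 89 peaks.

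Among the 8 stretches of 3 windows, that on chromosome 5 from 122000001 to 125000000 held the most peaks, 218. Chromosome 4 from 132000001 to 135000000 held 213. Chromosome 11 had 3 such stretches, from 100000001 to 103000000 with 212 peaks, from 68000001 to 71000000 with 209 and from 96000001 to 99000000 with 194. The first and last of these were parted by a single window below the threshold. Stretches with 198 peaks spanned 118000001 to 121000000 of chromosome 2 and 36000001 to 39000000 of chromosome 15. The last was on chromosome 9 from 65000001 to 68000000 with 193 peaks.

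Windows beside a dense one were themselves well filled. The 219 windows that touched a dense window without being dense had a median of 42 peaks (quartiles 30 and 51), against 14 (4 and 31) in the 2047 windows that neither were dense nor touched one. None of the 219 was empty and 9 had fewer than 10 peaks, while 838 of the 2047 (40.9%) had fewer than 10. Some edges were abrupt all the same. The window with 98 peaks on chromosome 8 lay between neighbours of 72 and 26 peaks, and that with 103 on chromosome 15 between 79 and 32. Over all windows, the count correlated with that of the next window (Spearman's rho 0.57, Pearson's r 0.56, 2402 pairs), less with the window 2 Mb away (rho 0.35) and little at 5 Mb (0.09). These are descriptions across windows of 1 library that share its depth.

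Inside the dense windows peaks were present nearly throughout, which the rule of at least 60 peaks itself favours. No bin values of other windows are given here, so these are a description only. Divided into bins of 100 kb, the windows gave 1550 bins, of which 7 (0.452%) held no peak, with a median of 7 peaks per bin. The fullest bin of a window held between 7 and 20 peaks and a median of 16.4% of its window's peaks. In no window did 1 bin supply more than 26.2%. The fullest bin of all, with 20 peaks, was on chromosome 11 from 62100001 to 62200000. In the densest window of chromosome 15 the successive bins held 6, 12, 7, 15, 4, 13, 2, 12, 19 and 13 peaks. In the window with 98 peaks on chromosome 8 they held 9, 15, 12, 18, 8, 16, 6, 1, 5 and 8, so that the left part was the fuller. The 2 windows with 89 peaks were more level, between 6 and 13 peaks a bin on chromosome 1 and between 5 and 13 on chromosome 15. The window on chromosome 16 dipped to 1 peak between 200 and 300 kb from its start and reached 14 in both bins between 500 and 700 kb.

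**Figure D2:**
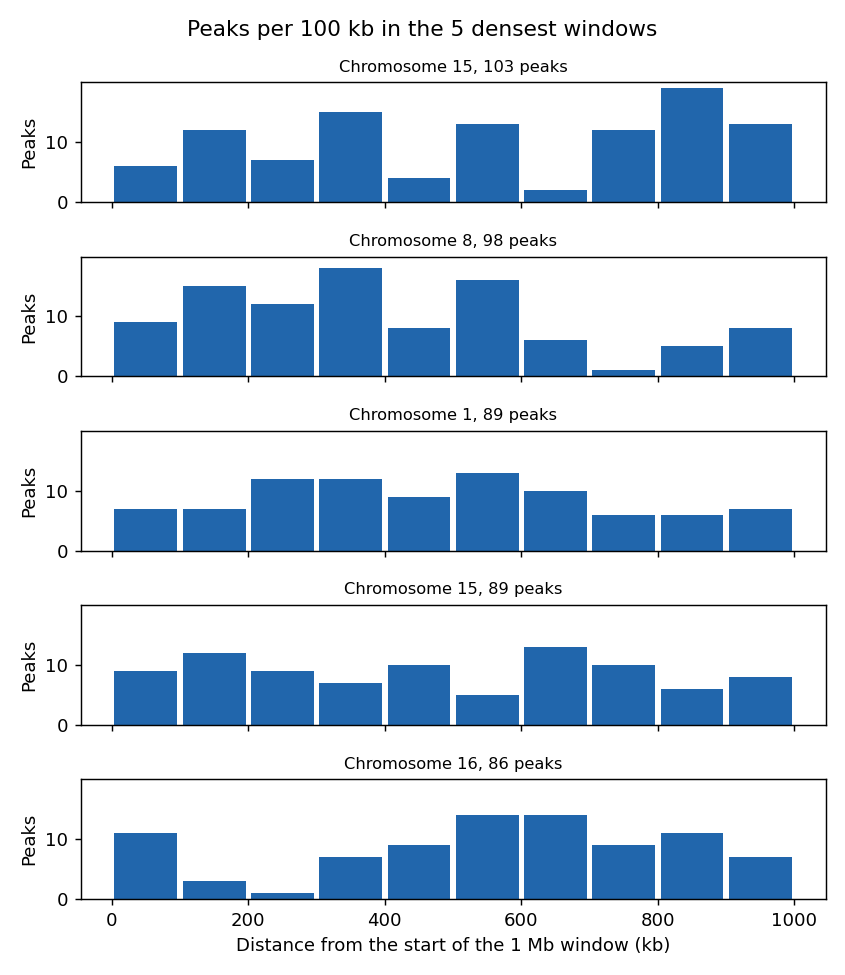
Bars give the number of peaks in each 100 kb bin of the 5 densest windows, against the distance from the window's start in kb. The window with 103 peaks on chromosome 15 ranges from 2 to 19 peaks a bin and that on chromosome 8 from 1 to 18, while both windows with 89 peaks stay between 5 and 13.

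Runs of at least 5 peaks with gaps of at most 5 kb from edge to edge added little to the counts. They held 225 of the 10541 peaks (2.13%, exact binomial interval 1.87 to 2.43%), against 321 of 46574 in other windows (0.689%, 0.616 to 0.769%) and 0.956% over chromosomes 1 to 19. A dense window offers more room for a run by its number of peaks alone. Of the 96 runs on these chromosomes, 39 lay wholly and 2 partly in dense windows, and 33 of the 155 dense windows (21.3%) had peaks of a run, against 58 of the 2168 other windows with a peak (2.68%) and 3.92% of both together. The largest of the 96, with 10 peaks each on chromosomes 1 and 12, lay outside the dense windows. The largest inside them had 9 peaks, on chromosome 8 from 87499967 to 87522388, where peaks covered 31.4% of the sequence and had a median width of 633 bp. A run of 8 on chromosome 11 from 3057761 to 3074556 was made of shorter peaks, with a median of 253.5 bp and 13.2% covered. The densest window of chromosome 15 had 21 of its 103 peaks in runs. They were a run of 7 from 102793799 to 102812819, a run of 6 from 102170722 to 102193436, a run of 5 from 102864526 to 102871749, and 3 peaks of a run of 8 that crosses the window's right edge. The run of 7 had the highest median width of these, 973 bp.

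Peaks in dense windows were wider than those elsewhere. Their median width was 341 bp (95% interval from order statistics 336 to 346 bp, quartiles 238 and 583 bp), against 263 bp (262 to 265 bp, quartiles 199 and 424 bp) in the other windows. Peaks of at least 1 kb were 955 of 10541 (9.06%, exact binomial interval 8.52 to 9.62%) and 2736 of 46574 (5.87%, 5.66 to 6.09%), where 6.46% was the share over chromosomes 1 to 19. The shortest width in the list, 165 bp, was rarer in them, at 198 peaks (1.88%) against 2647 (5.68%), with 4.98% over these chromosomes. Dense windows thus held 18.5% of the peaks on the autosomes, 21.9% of the length those peaks cover and 25.9% of their wide peaks. Width and position come from the same list, and peaks are not replicates, so no test was made. The intervals treat peaks as independent and cover counting error only.

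They also stood earlier in the list. The list as a whole is not in genome order and has no score. The quantity that ordered it is not given in the sources used here. Line numbers are given as a percent of all lines, with low values for early lines. Parts of the list may still run by chromosome. For the 1413 peaks of chromosome X the median line was 65.62% and its interval began at 65.55%, so some stood close together. Single lines and differences between chromosomes may reflect such blocks, which was not tested. The median was 35.9% (interval 35.2 to 36.5%) in dense windows and 53.1% (52.6 to 53.6%) in the others. The first 10% of lines supplied 1538 of the peaks in dense windows (14.6%, exact binomial interval 13.9 to 15.3%) and 4266 of the others (9.16%, 8.90 to 9.43%), with 10.2% over chromosomes 1 to 19. The last 10% of lines supplied 505 (4.79%) and 5056 (10.9%), with 9.74% over these chromosomes. Of the first 1000 lines 243 were in dense windows (24.3%), and of the 1000 widest peaks 260 (26.0%).

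Both differences had the same direction on each of the 19 autosomes. The median width in dense windows exceeded that in the other windows of the same chromosome by 20.5 bp on chromosome 12, the least, and by 197 bp on chromosome 7, the most. Chromosome 7 rests on 2 dense windows and 133 peaks. The median line was earlier by 11.2 percentage points on chromosome 17 at the least and by 23.2 on chromosome 10 at the most. On chromosome 11, with the most dense windows, widths were 368 and 279 bp and lines 32.4% and 47.4%. On chromosome 15 widths were 325.5 and 262 bp and lines 35.5% and 52.1%.

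Peaks were wider and earlier by the median in each fuller class of windows, with the dense windows at the end of this order. The classes are cut by the same count that chose the dense windows, so they cannot decide whether those are a class apart. From windows with 1 to 9 peaks upward, in steps of 10, the median width was 218, 233, 247, 258, 287 and 303 bp, and then 341 bp in the dense windows. The median line in the same classes was 72.8, 62.1, 57.0, 53.2, 47.9 and 42.8%, and then 35.9%. The share of 165 bp peaks was 13.7% in the sparsest class and 1.88% in the dense windows. Just below the threshold, the 85 windows with 55 to 59 peaks had a median width of 305 bp (298 to 310 bp) and a median line of 42.2%, and just above it the 67 windows with 60 to 64 peaks had 335 bp (328 to 345 bp) and 38.4%. The 10 windows with exactly 59 peaks had a median width of 320 bp (302 to 342 bp) and a median line of 38.9%. The 13 windows with exactly 60 peaks had 353.5 bp (330 to 371 bp) and 38.2%. The 10 windows with at least 80 peaks had 370 bp and 31.7%.

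**Figure D3:**
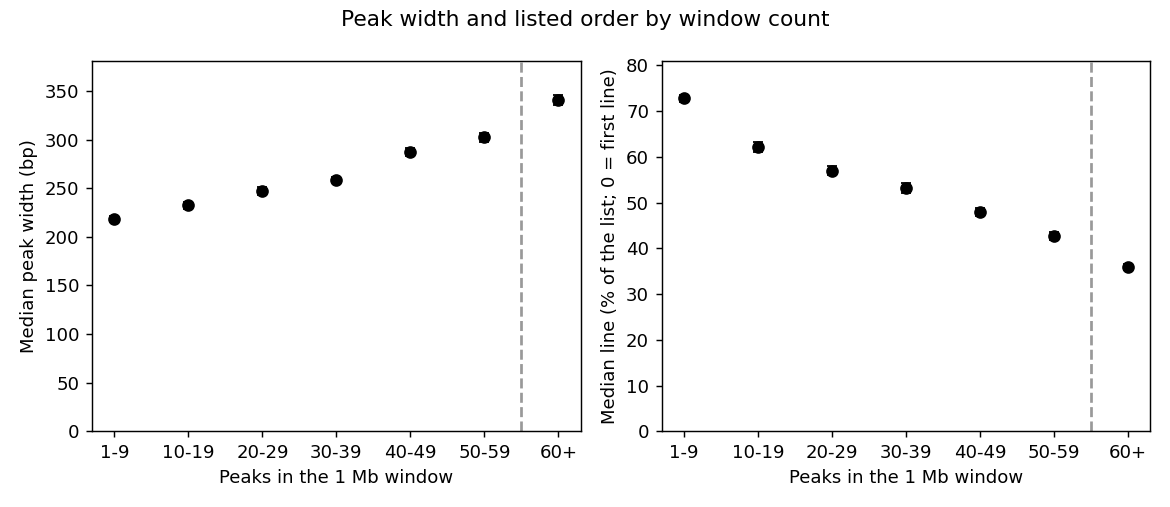
The left panel gives the median peak width in bp and the right panel the median line as a percent of the list, for windows grouped by their number of peaks; bars are 95% order-statistic intervals and the dashed line marks 60 peaks. Width increases at each step from 218 to 341 bp and the median line moves at each step from 72.8 to 35.9%.

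Early-listed and late-listed peaks did not become more frequent in step. Windows with 20 to 29 peaks had 10.4 ± 3.22 peaks from the first 50% of lines and 13.8 ± 3.19 from the last 50% (mean ± SD over 318 windows). Windows with 50 to 59 peaks had 31.0 ± 7.07 and 23.1 ± 6.62 (177 windows). Dense windows had 44.6 ± 10.0 and 23.5 ± 7.49 (155 windows). From the class of 50 to 59 peaks to the dense windows, early-listed peaks were thus 1.44 times as many, whereas late-listed peaks were 1.01 times as many. The 2 ends of the list showed the same contrast. Peaks of the first 10% of lines averaged 6.14 ± 3.07 and 9.92 ± 4.89 in the same 2 classes, and peaks of the last 10% averaged 3.66 ± 2.24 and 3.26 ± 2.04. The early and late counts of a window add up to the total that placed it in its class, so these means are a description of that total.

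**Figure D4:**
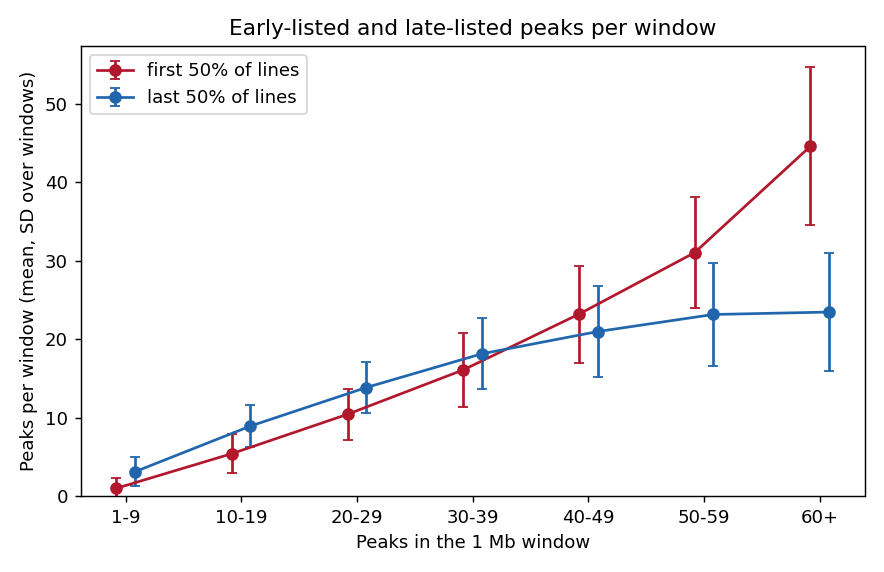
Points give the mean number of peaks per window from the first 50% (red) and the last 50% (blue) of lines for windows grouped by their number of peaks, with SD over windows as bars. Late-listed peaks level off at 23.1 and 23.5 in the 2 fullest classes while early-listed peaks go on from 31.0 to 44.6.

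Width and listed order were linked, so the width difference was also read within successive 10% steps of the list. Among the first 10% of lines the median width was 783 bp in dense windows (755 to 807 bp) and 805 bp in the others (786 to 818 bp). In the next 10% it was 572 and 573 bp. In each of the 8 later steps peaks in dense windows were wider by the median, by 11 to 49 bp, the most being 411 against 362 bp between 20 and 30% of the lines. Within the first 20% of lines the peaks of dense windows were therefore not wider by the median. The gap of 341 against 263 bp over the whole list includes their larger share of early lines. The share of autosomal peaks that lay in dense windows went from 26.5% in the first 10% of lines to 9.08% in the last 10%.

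Close neighbours are more frequent where peaks are many. In dense windows 2933 peaks (27.8%) had no other midpoint within 10 kb, against 21140 (45.4%) in other windows and 42.1% over chromosomes 1 to 19. Among these lone peaks alone, the median width was 344 bp in dense windows and 245 bp in the others, and the median line 38.4% and 60.7%. The share of at least 1 kb was 12.2% and 6.97%. Both differences were as large among these lone peaks as among all. In dense windows 7.83% of peaks with a neighbour were at least 1 kb wide, and in other windows 4.97%, below the lone peaks in both. Being alone was thus linked to width, so the comparison cannot separate spacing from width.

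The dense windows differed widely from one another. Their median width ran from 221 to 784.5 bp, with quartiles of 293 and 404.75 bp. The 1419 other windows with at least 10 peaks ran from 174.5 to 629 bp, with quartiles of 228 and 292.75 bp. Of the 155 windows 140 (90.3%) had a median above 263 bp, the value of peaks outside them, against 136 of the 177 windows with 50 to 59 peaks (76.8%) and 39.2% of all windows with a peak. A median line earlier than 53.1% was found in 147 of the 155 (94.8%), in 142 of those 177 (80.2%) and in 38% of all. Peaks covered between 1.69% and 6.37% of a dense window, the highest being the window with 98 peaks on chromosome 8. Within the dense windows, whose counts the rule restricts, the number of peaks said little about width (Spearman's rho 0.05, Pearson's r 0.04, 155 windows). Its relation to the median line there was weak (rho -0.20, r -0.22). Over the 1574 windows with at least 10 peaks, number and median width were related (rho 0.52, r 0.48). Number and median line were related over those 1574 windows too (rho -0.55, r -0.56). Median width and median line were related across the 155 dense windows (rho -0.82, r -0.79) and also over the 1574 windows (rho -0.69, r -0.71).

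A pair of adjoining windows on chromosome 10, from 79000001 to 81000000, stood at one extreme. They held 68 and 62 peaks, close to the threshold, but their median widths were 782 and 784.5 bp and their median lines 13.8% and 14.0%. Of the 68 peaks in the first, 19 (27.9%) were at least 1 kb wide and 63 came from the first 50% of lines, and of the 62 in the second 60 did. The widest peak of the whole list, 5517 bp from 79610497 to 79616013, lay in the first of them. The next in median width was chromosome 19 from 5000001 to 6000000, with 66 peaks and 629 bp, which adjoins the window of 82 peaks named above. The gap of these windows to the rest of the dense ones is visible in the plot of window medians.

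At the other extreme, the window on chromosome 13 from 99000001 to 100000000 held 63 peaks with a median width of 221 bp. That on chromosome 9 from 67000001 to 68000000 held 60 peaks with a median of 236.5 bp, at the right edge of its stretch of 3, and the window after it held 8. On chromosome 8 from 94000001 to 95000000, 63 peaks had a median width of 243 bp and a median line of 68.1%, the latest of all dense windows, with 18 peaks from the first 50% of lines and 45 from the last. Even so, that window contained a peak of 3136 bp. The median widths of these 3 windows, 221 to 243 bp, lay near the 233 bp of windows with 10 to 19 peaks.

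**Figure D5:**
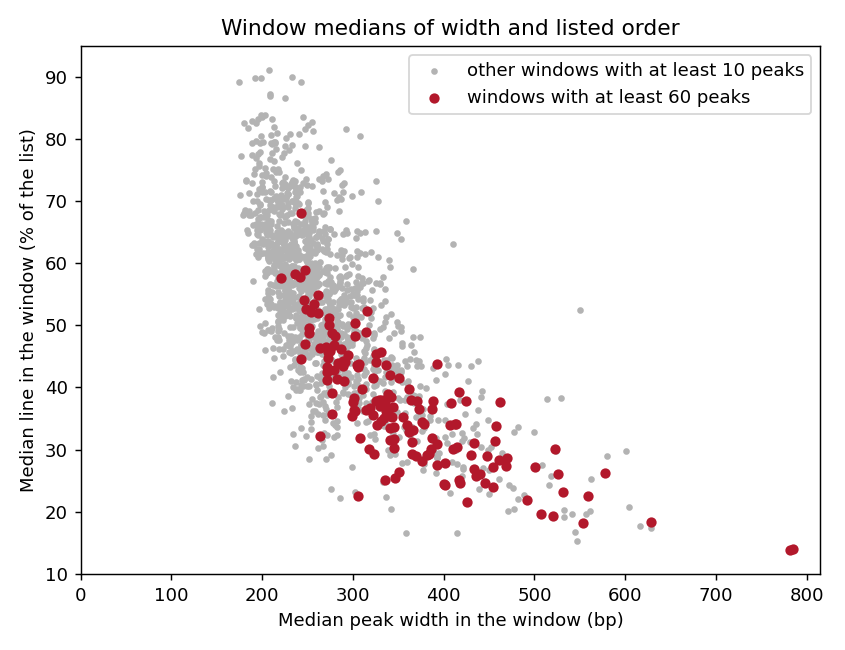
Each point is a 1 Mb window, placed by the median width of its peaks in bp and their median line as a percent of the list; red points are dense windows and grey points other windows with at least 10 peaks. The 2 red points near 782 and 784.5 bp are the adjoining windows of chromosome 10, and the highest red point, at 68.1%, is on chromosome 8.

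Adjoining windows were not always alike. In the stretch of 7 windows on chromosome 15 the median width of a window ran from 262 to 433 bp and the median line from 26.9 to 54.8%, and 50 of its 554 peaks (9.03%) were at least 1 kb wide. In the stretch of 4 on that chromosome widths ran from 290 to 520 bp and lines from 19.2 to 41.0%. The 3 stretches of chromosome 11 named above had median widths of 404.5, 370 and 430 bp and wide shares of 11.8, 12.9 and 13.4%. The stretches of chromosome 15 from 36000001 and of chromosome 9 from 65000001 had narrower peaks, with medians of 264 and 276 bp and wide shares of 5.05 and 4.66%.

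The widest and the earliest peak of each of the 5 densest windows are given as a description of single peaks. In the window with 103 peaks the widest peak, on chromosome 15 from 102751106 to 102752659, spanned 1554 bp and stood on line 4834. The peak with the earliest line there, line 136, spanned 639 bp from 102180773 to 102181411. In the window with 98 peaks the widest peak was 2154 bp on line 4825, on chromosome 8 from 87253509 to 87255662. The earliest there, on line 207, was 370 bp from 87904661 to 87905030. In the window with 89 peaks on chromosome 1 they were a peak of 1446 bp on line 4444, from 137480989 to 137482434, and one of 312 bp on line 1704, from 137595924 to 137596235. In the other window with 89 peaks, on chromosome 15, a peak of 2178 bp from 81479228 to 81481405 stood on line 4832, and a peak of 1030 bp from 81688221 to 81689250 on line 230. On chromosome 16 a single peak was both, 1285 bp from 91043809 to 91045093 on line 1074. In 4 of these 5 windows, then, the earliest peak was not the widest, which among so many peaks is no finding. Lines 4825, 4832 and 4834 stand close together and in genome order. They may reflect a block of the list, which was not tested, so their distance from the earliest lines says little.

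Some of the first lines of the list were in dense windows other than the 10 fullest. Of the first 10 lines 4 were, on chromosome 5 from 124356934 to 124357810 (line 3), chromosome 9 from 108418904 to 108420354 (line 6), chromosome 2 from 156005108 to 156006427 (line 7) and chromosome 5 from 136253773 to 136254972 (line 8). Of the first 100 lines 19 were in dense windows (exact binomial interval 11.8 to 28.1%), which includes the 18% of all peaks found there. Over the first 1000 lines the share was 24.3% (21.7 to 27.1%), above that background. The interval of the first 100 lines includes 24.3% too, so those lines cannot show whether the difference holds there.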

How the data were processed

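The authors deposited 1 peak list for the anti-Six4 library of shNS cells, with 3 columns (chromosome, start, end) and no header, score or p-value. The submitters' processing notes name Bowtie, Picard, bedtools, MACS2 2.0 and mm9, without roles or settings. Starts were counted from 0 and are printed from 1. At the listed positions, promoters of a GRCm38 table met peaks less often than at some shift of up to 600 kb on 16 of 18 chromosomes, so no gene position was taken from that table.

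Windows, widths and line numbers were computed with Python 3.11.15, numpy 2.4.6, pandas 2.3.3 and scipy 1.17.1, and plotted with matplotlib 3.10.9. Windows without a peak were counted between the first and last peak. Shares have Clopper-Pearson intervals and medians have binomial order-statistic intervals. The window code was tested on simulated data. Named windows were the 10 fullest and stretches of at least 3, with the widest and earliest peak of the 5 fullest; any other window or peak was picked for its value. The members and measures were chosen with earlier results of these data known.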

Additional observations from a re-analysis of the deposited data

How the results depend on the processing

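Of 45 recomputed values, 24 stayed within 1.5 times for counts or within the 95% interval otherwise, and 21 moved. In all 18 that compare width, wide share or line, peaks of dense windows were wider or earlier than the rest. A threshold of 50 gave 332 windows, 20128 peaks, 61.4% adjoining, a median width of 322 bp, 8.28% wide and a median line of 39.2%. A threshold of 70 gave 53 windows, 4036 peaks, 24.5% adjoining and a median line of 34.3%. Merging peaks under 500 bp apart left 113 dense windows with 7523 peaks, against 155 and 10541, so membership of some windows rests on peaks counted separately. The merged peaks had a median width of 356 bp, 11.9% wide and a median line of 34.5%. Windows of 500 kb with at least 30 peaks numbered 461, with 16193 peaks and 57.9% adjoining, and windows of 2 Mb with at least 120 numbered 47, with 6188 peaks. A grid shifted by 500 kb gave 147 windows, and placing peaks by start or end gave 155. As alternatives chosen after seeing the data, leaving out chromosomes 11 and 15 gave 30.6% adjoining, and lone peaks gave 12.2% wide and a median line of 38.4%. No paired analysis was possible because there is 1 library. Read depth is unknown, so how many weak sites went uncalled cannot be stated.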
